A study of Mus musculus with 6 samples.

Results

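The miRNAs miR-124, miR-9 and miR-128 are 3 of the best known microRNAs (miRNAs) of neurons, and their levels were compared between the prefrontal cortex of BTBR and C57BL/6J mice. All assays whose miRNA name, without species prefix, arm mark and a trailing letter, is miR-124, miR-9 or miR-128 were taken, which gave 5 of the 750 miRNA assays of a TaqMan OpenArray rodent panel. These were mmu-miR-124a (assay 001182) and hsa-miR-124# (002197) for miR-124, hsa-miR-9 (000583) and hsa-miR-9# (002231) for miR-9, and hsa-miR-128a (002216) for miR-128. The prefix is the species of the assay design, and # marks the strand of the hairpin that was named as the minor one. The assays mmu-miR-124a, hsa-miR-9 and hsa-miR-128a belong to pool A of the panel and both # assays to pool B, the pool being the last letter of an assay's identifier.

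The samples came from 6 untreated male mice aged 5 months, 3 of the genotype BTBR T+ Itpr3tf/J and 3 wild type C57BL/6J controls, with 1 sample of whole prefrontal cortex per mouse. BTBR is an inbred strain studied for its low sociability and repetitive grooming, and its name records its alleles at T and Itpr3. The labels enter C57BL/6J as the strain background of all 6 mice and set the BTBR mice apart by their genotype. In tissue RNA, fewer cells of a type and less miRNA per cell cannot be told apart. Each assay gave a cycle threshold, which counts PCR cycles until fluorescence passes a fixed line. Less RNA therefore gives a higher value, and 1 cycle is taken as a 2-fold difference. A value of 40 is undetermined, and an assay was called detected in a sample when its raw threshold lay from 10 cycles up to but not including 40.

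A miRNA is cut from 1 arm of a hairpin precursor and guides the silencing complex to mRNAs that pair with its seed, bases 2 to 8. miR-124 is strongly enriched in neurons, where it represses transcripts of other cell types and the splicing factor Ptbp1. miR-9 acts in neural progenitors and in neurons and is unusual in that both of its strands are known to be used, with the transcriptional repressor REST among the targets of the 5p strand and its partner CoREST among those of the 3p strand. miR-128 increases in neurons after birth and restrains their excitability.

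The mature strands behind 3 of the assays are shown because the comparison turns on which strand an assay reads. They are RefSeq mouse sequences with the seed in capitals. The assay hsa-miR-9 reads miR-9-5p, hsa-miR-9# reads miR-9-3p and hsa-miR-128a reads miR-128-3p.
mmu-miR-9-5p: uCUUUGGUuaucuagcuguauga
mmu-miR-9-3p: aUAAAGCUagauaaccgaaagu
mmu-miR-128-3p: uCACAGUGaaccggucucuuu
The 3 seeds differ from each other, and 0 of the other names among the 1679 mature names of the RefSeq table have bases 2 to 8 of any of them. The G+C content was 34.8% for miR-9-5p, 31.8% for miR-9-3p and 47.6% for miR-128-3p.

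The hairpins show why an assay cannot tell gene copies apart. They are given 5′ to 3′ from RefSeq (build GRCm38.p6), with the strands that the panel measures in capitals.
Mir9-1: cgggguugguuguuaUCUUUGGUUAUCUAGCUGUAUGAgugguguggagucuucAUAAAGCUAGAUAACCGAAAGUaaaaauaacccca
Mir9-2: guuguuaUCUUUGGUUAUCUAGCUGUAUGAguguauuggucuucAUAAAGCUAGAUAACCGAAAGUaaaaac
Mir9-3: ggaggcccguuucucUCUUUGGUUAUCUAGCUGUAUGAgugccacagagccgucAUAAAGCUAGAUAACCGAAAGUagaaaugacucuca
Mir128-1: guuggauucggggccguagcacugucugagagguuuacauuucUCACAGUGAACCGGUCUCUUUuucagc
Mir128-2: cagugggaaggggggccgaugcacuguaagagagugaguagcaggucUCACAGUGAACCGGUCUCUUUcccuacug
Both miR-9 strands are the same in all 3 Mir9 hairpins, and miR-128-3p is the same in both Mir128 hairpins, while loops and flanks differ. Mir9-1 lies at chr3:88215598-88215686 (+) within the lncRNA gene Gm3764, Mir9-2 at chr13:83738814-83738885 (+) within the lncRNA gene C130071C03Rik, and Mir9-3 at chr7:79505264-79505353 (+) within Mir9-3hg. Mir128-1 lies at chr1:128202361-128202430 (+) within the span of the protein-coding gene R3hdm1, and Mir128-2 at chr9:112118636-112118711 (-) within that of Arpp21. The miR-124 genes are Mir124a-1 at chr14:64590657-64590741 within the lncRNA gene Mir124a-1hg, Mir124a-2 at chr3:17795662-17795770 within Mir124-2hg, and Mir124a-3 at chr2:180894040-180894107.

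The samples differed in how many spots gave a signal. Detected miRNA assays numbered 347 to 404 of 750 in BTBR and 289 to 305 in C57BL/6J, and the gap lay in pool A (212 to 244 against 175 to 180) more than in pool B (114 to 161 against 114 to 129). Of the 80 spots of 5 endogenous controls (U6 rRNA, snoRNA135, snoRNA202, U87 and Y1), 0 to 2 were undetermined in BTBR samples and 17 to 21 in C57BL/6J samples. For U6 rRNA alone that was 0 of 16 in every BTBR sample and 3 to 5 of 16 in C57BL/6J samples. Detected counts, pool A counts and undetermined control spots each had an exact two-sided permutation p of 0.1 (n = 3 per strain, adjusted p = 0.175 over 7 measures), the smallest p that 3 against 3 allows. BTBR replicate 3 resembled the C57BL/6J samples (Pearson r of raw thresholds up to 0.964 over 237 assays) more than its own strain (up to 0.918), so results that rest on it are given with and without it.

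In cortex of both strains, miR-9-3p and miR-128-3p were among the earliest signals of the panel. The neuron-enriched miR-124a came later, from place 125 of 404 detected assays in BTBR replicate 2 to 294 of 305 in C57BL/6J replicate 1. Raw thresholds of hsa-miR-9# were 14.09, 13.80 and 13.74 cycles in BTBR replicates 1 to 3, against 13.76, 13.49 and 13.72 in C57BL/6J replicates 1 to 3. Its rank among the assays detected in a sample, counted from the earliest threshold, was 11 of 358, 11 of 404 and 11 of 347 in BTBR, against 12 of 305, 10 of 301 and 9 of 289 in C57BL/6J. The assay held nearly the same place in every sample, and within pool B it ranked between 2 and 4.

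Raw thresholds of hsa-miR-128a were 14.67, 14.91 and 14.47 cycles in BTBR and 13.89, 13.99 and 13.81 in C57BL/6J. It ranked 17, 26 and 15 in BTBR and 14, 13 and 11 in C57BL/6J. All 3 BTBR values were later than all C57BL/6J values.

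For mmu-miR-124a, raw thresholds were 20.78, 19.79 and 23.29 cycles in BTBR and 31.40, 24.83 and 24.44 in C57BL/6J. Its ranks were 126, 125 and 188 in BTBR and 294, 198 and 188 in C57BL/6J, the lowest place being 294 of 305 detected assays in C57BL/6J replicate 1. The strains did not overlap in threshold but BTBR replicate 3 lay close to C57BL/6J replicates 2 and 3, and the spread was wide on both sides.

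Among the 237 assays detected in all 6 samples (31.6% of the panel, and 3 of the 5 members), ordered by mean rank, hsa-miR-9# was number 6, hsa-miR-128a number 9 and mmu-miR-124a number 145. The 5 earliest were hsa-miR-30c, hsa-miR-222, hsa-miR-132, hsa-miR-26a and hsa-miR-125b. An assay with a reading under 10 cycles is not in this order: hsa-miR-138, at 11.57, 10.91 and 11.05 cycles in BTBR and 10.62, 10.76 and 9.60 in C57BL/6J, came before hsa-miR-132 in every sample. The neighbours of hsa-miR-9# in this order were hsa-miR-125b (13.54 ± 0.63 cycles in BTBR and 12.66 ± 0.12 in C57BL/6J) and hsa-miR-150 (14.29 ± 0.67 and 13.45 ± 0.28), against 13.88 ± 0.19 in BTBR and 13.65 ± 0.14 in C57BL/6J for hsa-miR-9# itself (SD, n = 3 each). In BTBR it lay within the SD of both neighbours, and in C57BL/6J within that of hsa-miR-150. The neighbours of hsa-miR-128a (14.68 ± 0.22 in BTBR and 13.90 ± 0.09 in C57BL/6J) were mmu-miR-434-3p (14.67 ± 0.13 and 13.42 ± 0.54) and hsa-miR-16 (14.38 ± 0.38 and 14.59 ± 0.09), of which mmu-miR-434-3p did not differ from it beyond the spread in either strain and hsa-miR-16 did in C57BL/6J. The mean of mmu-miR-124a, 21.29 ± 1.81 cycles in BTBR and 26.89 ± 3.91 in C57BL/6J, covers within its SD both neighbours in C57BL/6J, rno-miR-339-3p (23.13 ± 0.38 in BTBR and 23.69 ± 0.26 in C57BL/6J) and mmu-miR-345 (23.50 ± 0.30 and 23.39 ± 0.29), and neither of them in BTBR. Thresholds of different assays also depend on primer efficiency and pre-amplification, so this order is one of signals and not of molecule numbers.

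**Figure D1:**
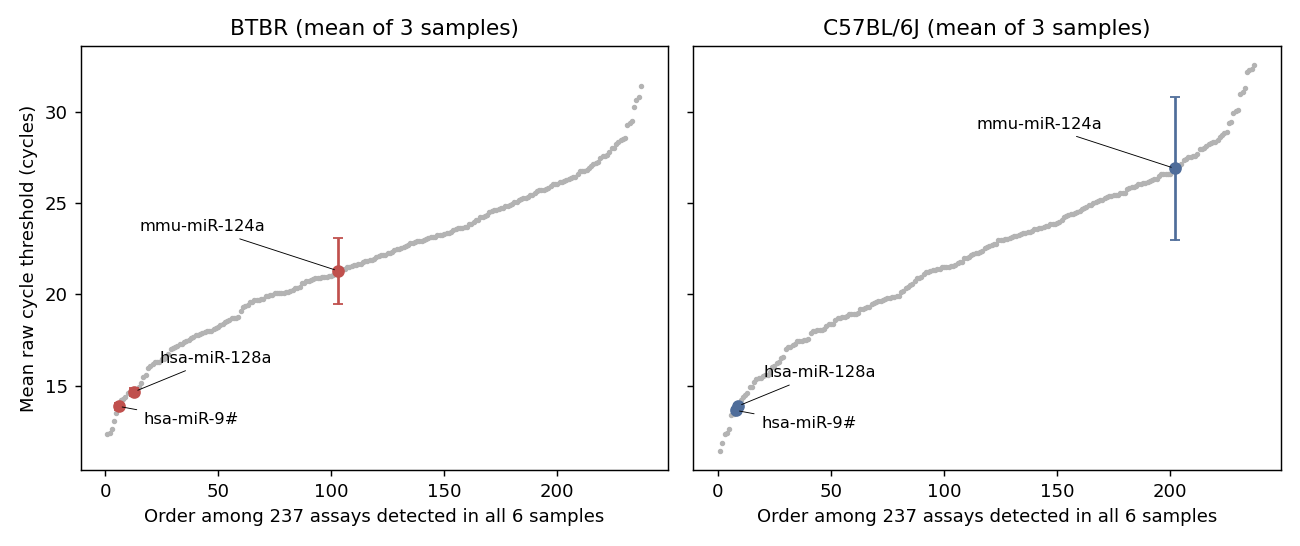
Mean raw cycle thresholds of the 237 assays detected in all 6 samples in ascending order (grey points), in BTBR at left and C57BL/6J at right, with hsa-miR-9#, hsa-miR-128a and mmu-miR-124a coloured with their SD (n = 3). The first 2 sit near the early end in both strains, and mmu-miR-124a is at 21.29 cycles in BTBR and 26.89 in C57BL/6J with the widest bars of the 3.

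The 2 assays left out of that order were each read in only 1 strain. The assay hsa-miR-9, for the strand named as the major one, was read in BTBR replicate 1 at 16.76 cycles and in BTBR replicate 2 at 13.90 cycles (raw) and was undetermined in BTBR replicate 3 and in all 3 C57BL/6J samples. It ranked 41 of 358 and 12 of 404 in the samples that read it. Its partner strand was read at nearly the same cycle in all 6 samples, as given above. In BTBR replicate 2 the 2 strands lay 0.10 cycles apart, and in BTBR replicate 1 hsa-miR-9 was 2.67 cycles later than hsa-miR-9#. As the strands are read in different pools, these distances are not ratios of the strands.

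Detection in 2 BTBR and 0 C57BL/6J samples occurred in 54 of the 750 assays (7.20% of the panel), and 34 of them had the same pattern as hsa-miR-9, read in BTBR replicates 1 and 2 only. Of those 34, 28 were pool A assays, and hsa-miR-9 had the earliest mean threshold (15.33 cycles, against a median of 24.62). An undetermined spot gives no bound on the level here: in C57BL/6J samples, U6 rRNA had 3 to 5 undetermined spots of 16 while other spots of the same RNA were read from 10.53 cycles on. The part of undetermined spots in the hsa-miR-9 result was not tested. The authors' normalized table does not list hsa-miR-9, so it has no strain test.

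The assay hsa-miR-124# showed the opposite pattern. It was undetermined in all 3 BTBR samples and had raw thresholds of 22.74, 21.70 and 13.68 cycles in C57BL/6J, that is ranks 143, 116 and 8. C57BL/6J replicate 3 read it far earlier than replicates 1 and 2, which were close to each other. Only 3 of the 750 assays (0.40%) were read in all C57BL/6J and no BTBR samples, the others being hsa-miR-23a and rno-miR-24-1#, against 28 (3.73%) with the reverse pattern. In each C57BL/6J sample the strand marked # was read before mmu-miR-124a, by 8.66, 3.12 and 10.77 cycles. The assays are in different pools, so these gaps are not ratios of the strands. No fold is given for hsa-miR-124#, since BTBR has no reading. In the authors' deposited table, where 40 counts as a value, its difference of mean thresholds is 21.23 cycles with an adjusted p of 0.0732. That size is set by the value 40 and is not a level. In a limma fit with 40 kept as a value, hsa-miR-124# was among the 31.4% of assays that passed, with 3 equal values of 40 as its BTBR group.

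**Figure D2:**
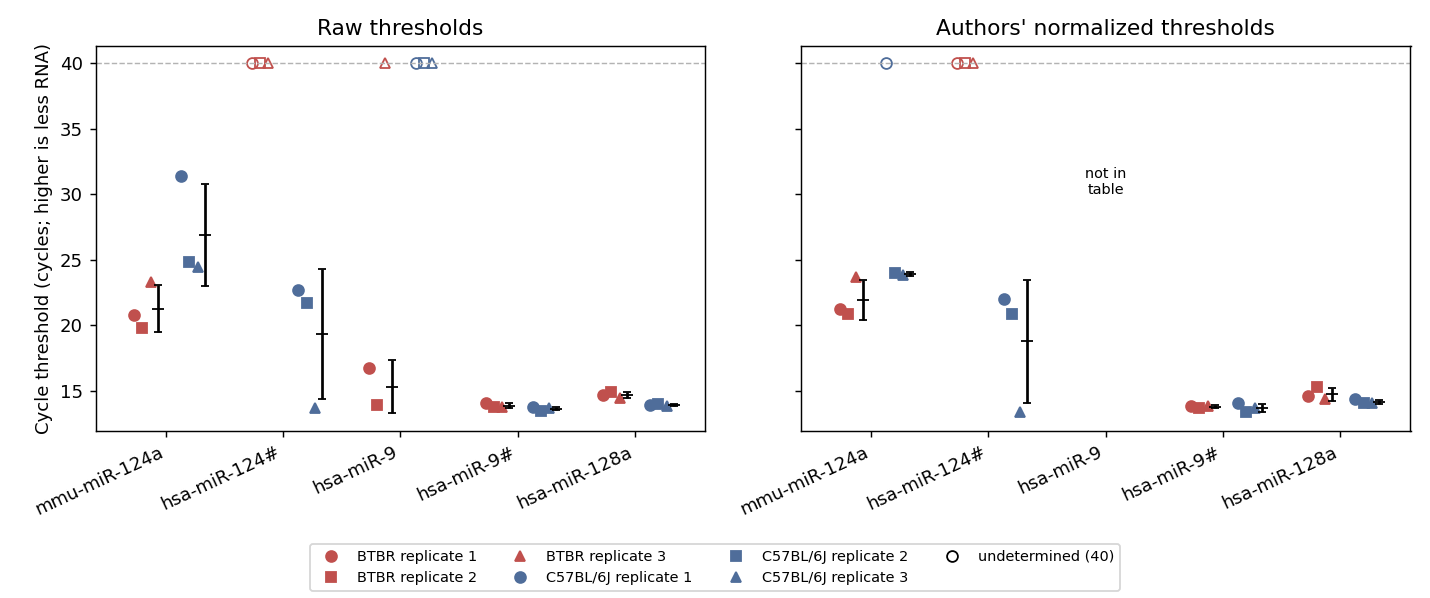
Cycle thresholds of the 5 assays in each sample (BTBR red, C57BL/6J blue, marker shape for the replicate), raw at left and normalized by the authors at right, with the mean and SD of detected values in black. Open markers at 40 are undetermined: hsa-miR-9 was read in 2 BTBR samples only and hsa-miR-124# in C57BL/6J only.

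The strain difference was tested on the authors' quantile-normalized thresholds, multiplied by -1 so that a positive log2 change means more miRNA in BTBR, with limma across 231 assays that had at least 2 values per strain. None of the 3 members in this test passed an adjusted p of 0.05, and 0 of 3 had an unadjusted p under 0.05, whereas 36.8% of all tested assays passed. The median log2 change was -1.13 over all 231 assays and -0.09 over the 3 members. Of the calls, 3 were higher (1.3% of assays tested) and 82 lower in BTBR.

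For mmu-miR-124a the normalized thresholds were 21.22, 20.89 and 23.71 cycles in BTBR, and 24.00 and 23.82 in C57BL/6J replicates 2 and 3. The reading of C57BL/6J replicate 1, raw 31.40, stands at 40 in the normalized table and was left out. The log2 change was 1.97 (standard error 0.95, 95% interval -0.49 to 4.44, limma adjusted p = 0.156), above 93.9% of the tested assays. All 3 BTBR samples were higher than either C57BL/6J sample, the nearest values being 23.71 and 23.82 cycles. Of the 189 assays with a normalized value in every sample, which leave out mmu-miR-124a, 59.3% had strains that did not overlap. Without BTBR replicate 3 the change was 2.86 (standard error 0.37) and passed (limma adjusted p = 0.0112), on 2 values per strain. In that fit 47.6% of assays passed and 6.13% passed as higher in BTBR. Without BTBR replicate 1 the change was 1.61 and without BTBR replicate 2 it was 1.45 (limma adjusted p = 0.316 and 0.315). BTBR replicate 3 was set apart for its likeness to C57BL/6J in these same data. In the authors' deposited table, which counts the 40, BTBR over C57BL/6J is 162-fold with an adjusted p of 0.438.

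For hsa-miR-128a the normalized thresholds were 14.59, 15.29 and 14.36 cycles in BTBR and 14.36, 14.05 and 14.05 in C57BL/6J, so the strains met at 14.36. The log2 change was -0.60 (standard error 0.35, 95% interval -1.45 to 0.26, limma adjusted p = 0.209). For hsa-miR-9# they were 13.87, 13.67 and 13.87 cycles in BTBR and 14.05, 13.42 and 13.67 in C57BL/6J. Its change was -0.09 (standard error 0.29, 95% interval -0.81 to 0.63, limma adjusted p = 0.802), and the strains overlapped fully. Neither assay was free of overlap, against 59.3% of the 189 assays with a normalized value in every sample whose strains did not overlap.

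On raw thresholds the same 3 assays gave larger or similar differences. For mmu-miR-124a the 2 fits also differ in samples, as the raw fit includes C57BL/6J replicate 1 at 31.40 cycles and the normalized fit leaves it out. Of the 3, mmu-miR-124a and hsa-miR-128a did not overlap between strains, against 32.5% of the 237 assays detected in all samples (18.1% later and 14.3% earlier in BTBR). The raw change of mmu-miR-124a was 5.60 (standard error 2.11, unadjusted p = 0.0404, limma adjusted p = 0.223), above 97.4% of 270 tested assays. That of hsa-miR-128a was -0.78 (standard error 0.26, unadjusted p = 0.0264, limma adjusted p = 0.186), and that of hsa-miR-9# was -0.22 (standard error 0.26, adjusted p = 0.63). In this limma fit 0.0% of the 270 tested reached significance after adjustment, while 52 had an unadjusted p under 0.05.

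After subtraction of the sample's global mean, taken over assays read in all 6 samples, the changes were 5.21 for mmu-miR-124a (standard error 1.86), -1.18 for hsa-miR-128a (0.42) and -0.62 for hsa-miR-9# (0.37). Their limma adjusted p were 0.149, 0.149 and 0.307, with 0.0% of assays passing and 71 of 270 having an unadjusted p under 0.05. Taken within pools, the values were 5.13, -1.26 and -0.47. The size for mmu-miR-124a rests on 1 sample: without C57BL/6J replicate 1 it was 3.14 (standard error 0.93, limma adjusted p = 0.262). Leaving out any other sample, also tried after seeing the data, kept it between 4.66 and 6.25 on this scale. Without BTBR replicate 3, 22.1% of 258 assays passed on the global mean scale but 0 of the 3 members did. The changes were then 6.08 for mmu-miR-124a, -1.42 for hsa-miR-128a and -0.82 for hsa-miR-9# (limma adjusted p = 0.0976, 0.0620 and 0.145).

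Scaling by the control RNAs moved all assays together, and with it the members. Against the mean of snoRNA135, snoRNA202, U87 and Y1, the change was -3.14 for hsa-miR-128a (limma adjusted p = 0.00489) and -2.58 for hsa-miR-9# (0.00569), so 2 of 3 members passed, with 64.1% of all assays passing and a median of -2.36. Against the median U6 rRNA spot the changes were nearly as large, -2.79 for hsa-miR-128a and -2.23 for hsa-miR-9#, but neither passed (limma adjusted p = 0.0637 and 0.0721). In that fit 0.0% of 270 assays passed, 131 had an unadjusted p under 0.05 and the median was -2.01. The control medians rest on spots of which 17 to 21 of 80 were undetermined in C57BL/6J. When sample medians were subtracted from the authors' values, both turned positive, with 0.58 for hsa-miR-128a and 1.08 for hsa-miR-9# (limma adjusted p = 0.195 and 0.0948, 0.866% of assays passing). The change of mmu-miR-124a was positive under all 8 scalings plotted, from 1.97 to 5.60. Both scalings of the authors' values lack C57BL/6J replicate 1 for this assay and the others include it, so this range is not one of scaling alone.

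**Figure D3:**
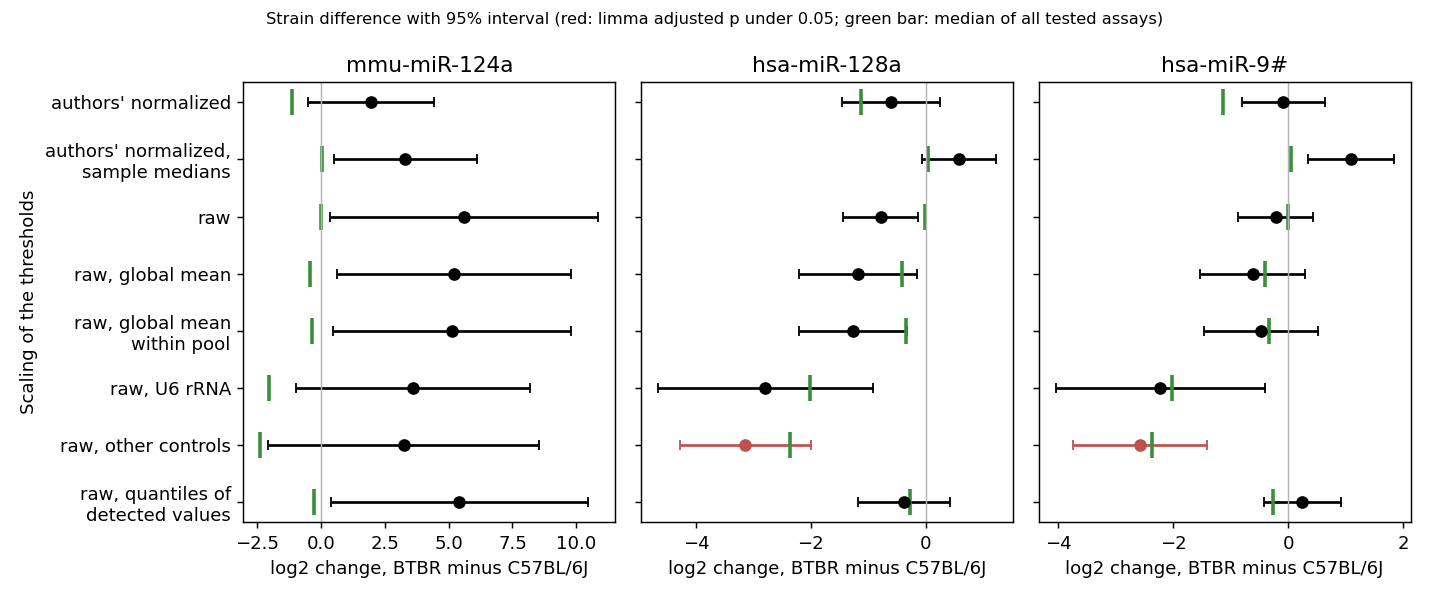
Log2 change, BTBR minus C57BL/6J, of 3 assays with 95% intervals (points and bars) under 8 scalings of the thresholds, with the median of all tested assays as a green bar and calls in red. mmu-miR-124a lies above the panel median in each row, while hsa-miR-128a and hsa-miR-9# change sign and pass only with the 4 other control RNAs. For mmu-miR-124a, both rows of the authors' values lack C57BL/6J replicate 1.

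Distances between members within 1 sample do not move with a shift common to all assays of that sample. mmu-miR-124a was 6.11, 4.88 and 8.82 cycles later than hsa-miR-128a in BTBR, against 17.51, 10.84 and 10.63 cycles in C57BL/6J, both being pool A assays. The mean distance was 6.60 ± 2.02 cycles in BTBR and 12.99 ± 3.91 in C57BL/6J (SD, n = 3 each), a difference of -6.39, or -4.13 without C57BL/6J replicate 1. The strains did not overlap. The same held for 82.2% of the other 236 assays set against mmu-miR-124a, and 37.3% of other assays had a smaller signed distance to hsa-miR-128a in BTBR without overlap.

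From hsa-miR-9#, mmu-miR-124a was 6.69, 5.98 and 9.55 cycles away in BTBR and 17.64, 11.33 and 10.73 in C57BL/6J. The difference of means was -5.83, or -3.62 without C57BL/6J replicate 1, and 18.6% of other assays had a smaller signed distance to hsa-miR-9# in BTBR without overlap. hsa-miR-128a was later than hsa-miR-9# by 0.58, 1.11 and 0.73 cycles in BTBR and by 0.14, 0.50 and 0.10 cycles in C57BL/6J. The means of that distance were 0.81 ± 0.27 and 0.24 ± 0.22 (SD, n = 3 each), a difference of 0.56, and the strains did not overlap, as for the 11.4% of other assays with a larger signed distance to hsa-miR-9# in BTBR. With each assay taken against the mean of its own pool, an alternative chosen after seeing the data, the difference was 0.79. All 3 pairs had an exact two-sided permutation p of 0.1, the smallest possible, and 0.1 after adjustment over the 3 pairs. On the authors' normalized values the distance between hsa-miR-128a and hsa-miR-9# overlapped between the strains (0.94 ± 0.59 in BTBR and 0.44 ± 0.17 in C57BL/6J). The differences for mmu-miR-124a were smaller there, -2.67 from hsa-miR-128a and -2.23 from hsa-miR-9#, with C57BL/6J replicate 1 missing and an exact permutation p of 0.2 each, the smallest that 3 against 2 samples allow.

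**Figure D4:**
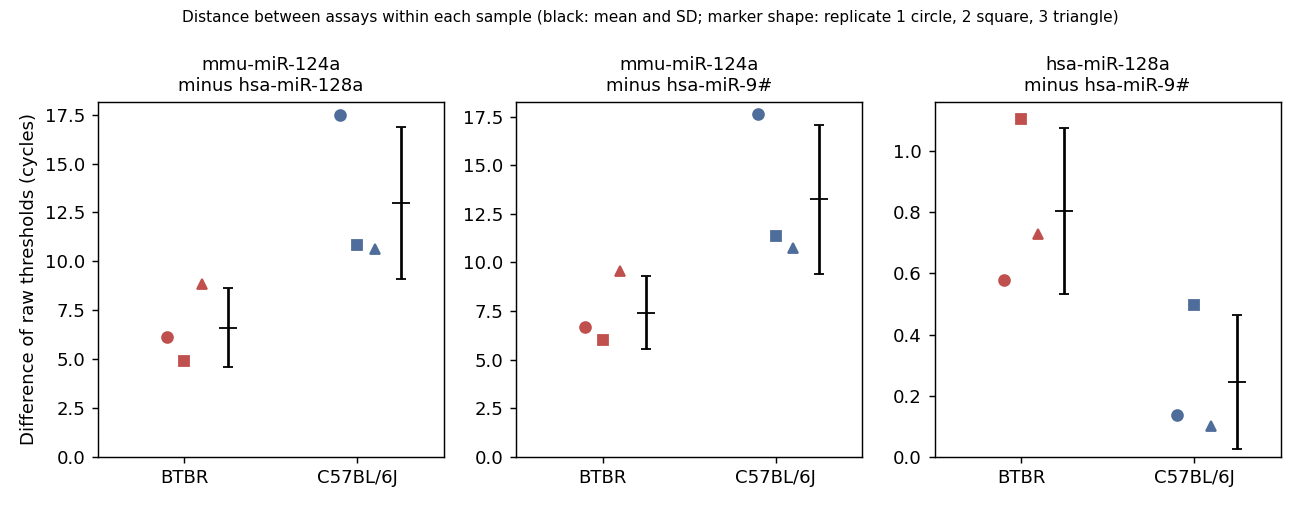
Difference of raw thresholds (cycles) between 2 assays in each sample, BTBR at left and C57BL/6J at right in each panel, with mean and SD in black. In all 3 panels the strains do not overlap, and BTBR replicate 3 (triangle) lies nearest to C57BL/6J in the 2 panels with mmu-miR-124a.

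Among assays detected in all samples, the pattern of mmu-miR-124a over the 6 samples, relative to the global mean, was most like that of mmu-miR-340-5p (Pearson r = 0.994) and hsa-let-7c (0.992), both in pool A. Raw thresholds of hsa-let-7c were 18.70, 17.69 and 21.75 cycles in BTBR and 28.30, 23.00 and 22.86 in C57BL/6J. Most like hsa-miR-128a were hsa-miR-26a (0.985) and hsa-miR-100 (0.984), and most like hsa-miR-9# were hsa-miR-214 (0.989) and hsa-miR-150 (0.987). hsa-miR-128a and hsa-miR-9# followed each other (0.924) and ran against mmu-miR-124a (-0.898 and -0.858). The median correlation over the other 236 assays was -0.50 for mmu-miR-124a, 0.43 for hsa-miR-128a and 0.48 for hsa-miR-9#, so most of the panel ran the same way. The global mean subtracted from every assay ran from 21.46 to 22.62 cycles over the samples, and raw hsa-miR-9# only from 13.49 to 14.09. This shared term enters all of these correlations, and its part in them was not tested. These correlations over 6 samples are descriptions, and the samples share the split in detection described above.

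Other neuron-enriched miRNAs, from a list of 18 names with 25 assays, were tested in the same way. Of 15 tested on the authors' values, 3 fell in BTBR, 0 rose and 12 did not pass, whereas 36.8% of all tested assays passed. The list had a median log2 change of -0.41 against -1.13 for all 231 assays. Those that fell were mmu-miR-326 (-2.03), hsa-miR-487b (-1.84), from the imprinted Dlk1-Dio3 cluster, and hsa-miR-129 (-1.67), each with a limma adjusted p of 0.0301. Other assays of the same names did not go with them. The assay mmu-miR-487b was read at 17.81, 17.03 and 18.11 cycles in BTBR and was undetermined in all C57BL/6J samples. For mmu-miR-129-3p the change was -0.30 (limma adjusted p = 0.746). When either BTBR replicate 1 or C57BL/6J replicate 3 was left out, 0 assays of the whole panel passed in limma. On the global mean scale 0 of 16 passed in limma, with 0.02 as the median and -1.02, -1.78 and -0.55 for the same 3 assays. The activity-regulated hsa-miR-132, the third earliest of the 237 assays detected in all 6 samples, stood at 12.68, 12.43 and 12.09 cycles in BTBR and 12.00, 12.36 and 12.67 in C57BL/6J, with overlapping strains.

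Like hsa-miR-9, 4 of the 25 neuronal assays were read in at least 2 BTBR and no C57BL/6J samples, against 10.9% of the panel. One of them was hsa-miR-328, at 13.05, 12.24 and 12.40 cycles in BTBR and undetermined in C57BL/6J. The reverse held for 1 of the 25, against 1.47% of the panel.

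The tissue label was checked against miRNAs of other organs. Of 15 assays for miRNAs typical of liver, muscle, heart or pancreas, 5 were read in all 6 samples and 5 in none. The earliest of their readings was 20.32 cycles, later than every reading of hsa-miR-9# and hsa-miR-128a. Readings of mmu-miR-124a, from 19.79 cycles on, overlapped with theirs. In every C57BL/6J sample and in BTBR replicate 3, the 5 assays read in all 6 samples came earlier than mmu-miR-124a. In BTBR replicates 1 and 2 all of them came later than mmu-miR-124a. The liver miRNA hsa-miR-122 was read from 26.77 cycles on. Of the oligodendrocyte assays, 1 of 2 tested fell in BTBR (hsa-miR-338-3p, -3.08, from 2 BTBR and 3 C57BL/6J values), of the astrocyte list 2 of 3 (rno-miR-29c#, -3.10, and mmu-miR-31#, -1.18), of the immune list 1 of 6 (hsa-miR-146a, -0.99) and of the list from other organs 1 of 5 (hsa-miR-1, -2.50). None of them rose, as 82 of the 85 calls among all assays were lower in BTBR and 36.8% of assays passed. For the endothelial and mural list and the red blood cell list, 0 of 2 and 0 of 1 passed in limma. On raw thresholds and on the global mean scale, limma called 0 assays of any list, and the astrocyte median was 0.48 and 0.08. In detection, 4 of 13 astrocyte assays and 1 assay each of the oligodendrocyte, immune, red blood cell and other-organ lists were read in at least 2 BTBR and no C57BL/6J samples, and 0 the other way round. The partner assays of the astrocyte calls, mmu-miR-31 and hsa-miR-29c, did not go with them, being undetermined in all C57BL/6J samples. Raw values of mmu-miR-31 were 11.553, 9.455 and 9.345 cycles in BTBR. Its values in BTBR replicates 2 and 3 lay under the lower limit for detection, so it is not among the 4. The immune assay mmu-miR-155 is left out of the counts in the same way, with 6.425, 6.774 and 6.93 cycles in BTBR and undetermined in C57BL/6J. The assay hsa-miR-29c was read at 22.53 and 19.26 cycles in BTBR replicates 1 and 2 only. The strain difference of these partner assays was not tested. The red blood cell miRNA hsa-miR-486 was at 16.66, 16.62 and 15.20 cycles in BTBR and undetermined in C57BL/6J. The part of cell makeup in the values of the neuronal assays was not tested.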

How the data were processed

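Small RNA was measured by quantitative PCR on 100 ng of total RNA per mouse purified on columns, per the labels' protocols, with reverse transcription and a pre-amplification step. The raw table holds cycle thresholds, a log2-type value deposited by the authors without normalization. Their second table holds quantile-normalized thresholds of 306 assays, per the file headers, none of them under 40 later than 29.19 cycles. The authors' deposited fold table gives a fold ratio, a log2 difference of thresholds, a score (the test statistic), a p-value and an adjusted p-value. The sources used here do not give the test variant or the threshold software. Thresholds carry no counting depth, and 3 mice per strain limit the precision.

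Raw values under 10 were taken as undetermined in the ranks and raw fits. A value of 40 in a miRNA assay was treated as missing, except in the fit that kept it as a value. Undetermined control spots entered the control medians as 40. Strains were compared with lmFit and eBayes of limma 3.58.1 (R 4.3.3), strain as the single term, on assays with at least 2 values per strain, with Benjamini-Hochberg adjustment over all assays tested. Distances and sample measures were compared with exact permutation tests (scipy 1.17.1). The fit was also run on simulated data with known changes. The simulated noise was independent between assays, with no shift common to a sample or pool, so that run cannot decide between scalings. Sequences and positions are from RefSeq tables of GRCm38.p6, matched by miRNA name for 3 of the 5 assays.

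Members, lists and tests were chosen with earlier results of these data known. Named assays are all members, the 5 with the best mean rank among assays detected in all 6 samples, the 2 most alike to each of the 3 members detected in all 6, and neuronal list members that passed. Neighbours in the order, hsa-miR-138, hsa-miR-328, hsa-miR-122, hsa-miR-486, the assays of the other cell type and organ lists that passed and the other C57BL/6J-only assays were named after their values were seen. So were mmu-miR-487b, mmu-miR-129-3p, mmu-miR-31, hsa-miR-29c, mmu-miR-155 and mmu-miR-451.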

Additional observations from a re-analysis of the deposited data

Results flagged for a closer look

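The assay hsa-miR-9 lay outside the strain test, yet gave early readings in BTBR replicates 1 and 2 (mean raw threshold 15.33 cycles, SD 2.02, n = 2) and no reading in any C57BL/6J sample. It is given here because a signal appeared in data that the comparison did not use. An undetermined spot gives no bound, so the level in C57BL/6J is unknown. BTBR replicate 3 was undetermined as well, and 17 to 21 of 80 control spots were undetermined in C57BL/6J samples against 0 to 2 in BTBR samples. The difference between the strains was not tested.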

How the results depend on the processing

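The number of assays called was 85 on the authors' values. It was 0 on raw thresholds, with the global mean, with the global mean within pools, with the median U6 rRNA spot and with quantiles of detected values (the last chosen after seeing the data), 173 with the other endogenous controls, and 2 when the authors' values were centred on sample medians. Leaving out 1 sample gave 0 to 101 calls: 0 without BTBR replicate 1 or C57BL/6J replicate 3, 3 without C57BL/6J replicate 2, 8 without BTBR replicate 2 and 101 without BTBR replicate 3. Same-numbered deviations from strain means correlated at 0.083, 0.42 and -0.0013 over 189 assays. BTBR replicates 1 and 2 correlated best with their own number and BTBR replicate 3 did not. With 3 mice per strain these values cannot decide whether replicate numbers pair the mice. With the replicate number as a block 49 of 226 assays were called. The members' block values were 1.61 for mmu-miR-124a, -0.60 for hsa-miR-128a and -0.09 for hsa-miR-9#, none past the threshold. The distances as paired differences had an exact permutation p of 0.25 each, the smallest that 3 pairs allow.

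Of the members, 0 passed on the authors' values, 2 with the other endogenous controls, 1 with 40 kept as a value (hsa-miR-124#, a difference made by undetermined spots), and 0 to 1 when 1 sample was left out, the 1 being mmu-miR-124a without BTBR replicate 3. Its test could not be run without C57BL/6J replicate 2 or 3. The change of hsa-miR-128a turned to 0.58 with sample medians, and that of hsa-miR-9# to 1.08 with sample medians, 0.24 with quantiles of detected values and 0.057 without C57BL/6J replicate 2, within a range of -0.26 to 0.057 when 1 sample was left out. The direction of mmu-miR-124a and of all 3 distances held in every alternative run, and the cause of the other changes was not tested. The mean rank of hsa-miR-9# was 10.7, and 14.2 with values under 10 kept, 9.5 on the normalized values and 2.83 within its pool.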
